A study of Mus musculus with 35 samples.

Results

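Interscapular brown adipose tissue (iBAT) is a heat-producing fat depot with a dense capillary bed. The genes described here are 36 endothelial and angiogenesis genes among the 55421 genes of the count table. They were chosen by name from vascular biology, with earlier results of these data known. They comprise 6 secreted ligands (Vegfa, Vegfb, Vegfc, Angpt1, Angpt2 and Apln), 8 receptors (Kdr, Flt1, Nrp1, Tek, Tie1, Aplnr, Eng and Robo4), 3 genes of Notch signalling (Dll4, Notch1 and Notch4) and 6 junction and surface proteins (Pecam1, Cdh5, Cldn5, Esam, Emcn and Plvap). The others are 6 secreted proteins and enzymes of the endothelium (Esm1, Egfl7, Mmrn2, Vwf, Ece1 and Nos3), 5 endothelial transcription factors (Sox7, Sox17, Sox18, Erg and Fli1) and both hypoxia-inducible factors Hif1a and Epas1. All 36 were found in the table by gene symbol.

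iBAT was taken from 35 male C57BL/6J mice of 9 to 10 weeks. RT controls (5 mice) stayed in colony housing at 24 °C, and the 6 cold groups of 5 mice were kept at 6 °C, 1 group for 6 hours and the others for 1 to 5 days. Cold-exposed mice were housed one to a cage without nesting material, so housing changed together with temperature and these cannot be told apart. A single pad per mouse, trimmed of white fat, gave 1 library. Whole tissue was sequenced, so fewer endothelial cells and less RNA per endothelial cell cannot be told apart in any value below.

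Blood vessels grow and are maintained through a few ligand and receptor pairs. VEGF-A acts on the endothelial receptor VEGFR2 (Kdr), while VEGFR1 (Flt1) binds VEGF-A and VEGF-B and limits the VEGF-A that reaches VEGFR2. Angiopoietin 1, made largely by pericytes and other perivascular cells, activates the receptor Tie2 (Tek) and stabilises vessels, and angiopoietin 2, released by endothelial cells, opposes it in many settings. Dll4 and Notch receptors restrain sprouting, and the SOXF (Sox7, Sox17, Sox18) and ETS (Erg, Fli1) factors maintain endothelial identity. Hif1a and Epas1 are oxygen-sensitive factors found in many cell types, and adipocytes are a known source of VEGF ligands in fat, so the list does not belong to endothelial cells alone.

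The list holds both ETS factors and hypoxia-inducible factors, and cold signals to brown adipocytes through cAMP, so the promoters of its genes were searched for the letters these pathways are known for. RefSeq promoters (GRCm38.p6, from 250 bases before to 50 bases after the start) were at hand for 21 of the 36 genes, in 29 entries, and were searched on both strands for the ETS core CCGGAA, the hypoxia response core ACGTG, its common variant GCGTG, and the cAMP response core TGACG. The ETS core was in 14.9% of the 32851 promoters of this length, a hypoxia core in either spelling in 43.8% and TGACG in 20.8% (TGACG and ACGTG can share bases on opposite strands). Of the 21 genes searched, Kdr was the only one with CCGGAA in its window. The windows of Eng, Tek, Tie1, Robo4, Vegfc, Cldn5 and Apln held none of these letters. Shown are 30 bases on the gene's strand for 3 genes that differ in their course in cold, with the match in capitals.
Kdr, ETS core on the opposite strand, 153 bases before the start, chr5:75978591-75978620, minus strand: cgcccggcacagTTCCGGggtagtggggga
Kdr, hypoxia core, 89 bases before the start, chr5:75978528-75978557, minus strand: tatccagtgggggGCGTGgccggacgcagg
Vegfb, hypoxia core, 81 bases before the start, chr19:6987716-6987745, minus strand: cccggtggggagcGCGTGtttaggtcacat
Emcn, hypoxia core, 11 bases before the start, chr3:137341048-137341077, plus strand: ctgacctcccaaagggagtGCGTGtatttc
These letters occur in a large share of all promoters and are a description of the sequence, not of binding.

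The libraries held 3846016 to 6047247 reads counted on genes, with a median of 4902083, and mitochondrial genes took 33.6% to 46.2% of them. Together the 36 genes took 0.128% to 0.199% of the counts of a library. Levels are given as counts per 1000000 (CPM), scaled with TMM factors over all 35 mice, and a single read equals 0.26 CPM in the smallest library. The 3′ end kit gives a count for each transcript end, so CPM do not scale with transcript length. Of the endothelial markers Pecam1, Cdh5, Kdr, Tie1, Cldn5 and Erg, each had reads in all 35 mice, from 132 ± 24.1 CPM for Kdr to 2.31 ± 1.36 CPM for Cldn5 in RT controls (SD, n = 5), and Cldn5 and Erg were near the lower limit of what these libraries resolve.

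Each duration was compared with the same 5 RT controls in its own edgeR quasi-likelihood fit over all genes, and a gene was called at a Benjamini-Hochberg adjusted p below 0.05. Differences are log2 fold changes (log2 FC) with their standard errors (SE), folds are those of the fit, and FDR stands for that adjusted p. At 6 hours, 9 of the 33 genes of the list that passed the filter on low counts were higher and 6 were lower, that is 27.3% and 18.2%, beside 21.5% and 21.0% of all genes tested. At 1 day, 9 of 32 were higher (28.1%, all genes 18.9%) and 4 were lower (12.5%, all genes 17.8%). The counts at 2 days were again 9 higher and 4 lower of 32, beside 16.4% and 14.7% of all genes. At 3 days, 7 of 32 were higher (21.9%, all genes 18.3%) and 2 were lower (6.25%, all genes 15.5%). At 4 days, 6 of 32 were higher (18.8%, all genes 19.4%) and 5 were lower (15.6%, all genes 18.6%). By 5 days, 3 of 33 were higher (9.09%, all genes 20.2%) and 5 were lower (15.2%, all genes 18.6%).

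The list as a whole was therefore called at rates near those of all genes, with more of its members higher than the background at 1 and 2 days and fewer at 5 days. Its median log2 fold change was 0.16 at 6 hours, 0.18 at 1 day, 0.19 at 2 days, 0.19 at 3 days, −0.02 at 4 days and −0.17 at 5 days, while the median of all genes tested stayed between −0.03 and −0.01. Across the 6 durations, 21 of the 36 genes were called at least once, 14 only as higher and 7 only as lower, and 15 were never called. Among the 34 that passed the filter at least once this is 61.8%, beside 67.7% of the 11320 genes of the table that did so. Of all those genes, 33.1% were only higher, 31.8% only lower and 2.77% both. Eng was higher at every duration, and Vegfb and Angpt1 were lower at every duration. These 6 comparisons share their control mice and are not independent.

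**Figure D1:**
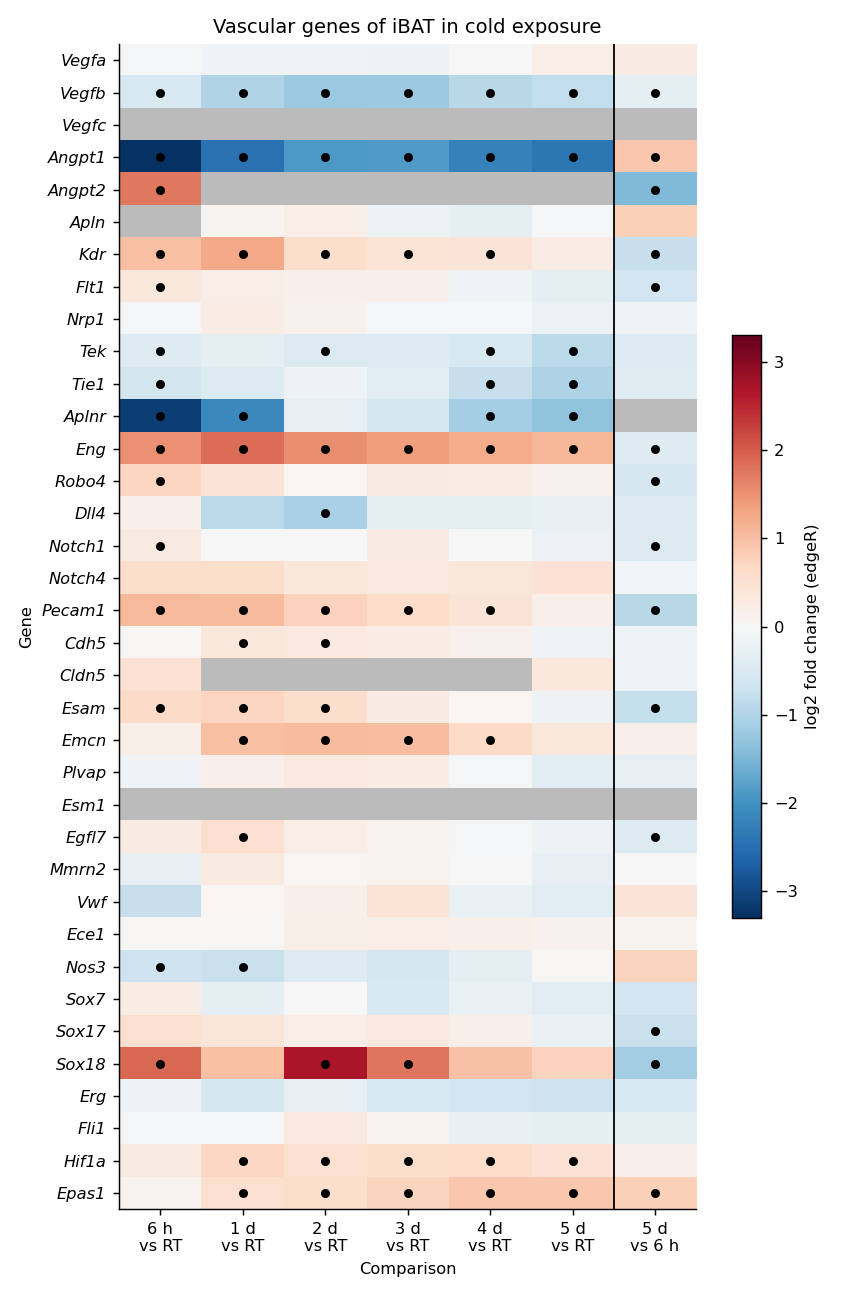
The colour of each cell gives the log2 fold change of 1 gene at 1 duration of cold against RT controls, and in the last column at 5 days against 6 hours, in edgeR fits of 5 against 5 mice, with black dots for genes called at an adjusted p below 0.05 and grey for genes that did not pass the filter on low counts. Angpt1 and Vegfb are lower and Eng is higher in all 6 columns against RT controls, while Kdr, Pecam1, Esam and Sox18 lose colour towards 5 days.

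How the libraries were scaled moved the balance between higher and lower calls over all genes. With library size only, in place of TMM, the median gene lay at −0.25 to −0.15 against RT controls, and the all-gene calls were 1342 higher and 3399 lower at 6 hours (2280 and 2225 with TMM), 1140 higher and 3218 lower at 1 day (2014 and 1901) and 931 higher and 2776 lower at 2 days (1748 and 1565). They were 1339 higher and 2430 lower at 3 days (1982 and 1674), 1440 higher and 2670 lower at 4 days (2140 and 2056) and 1194 higher and 3347 lower at 5 days (2167 and 1998). Fold changes below are therefore relative to the median gene. No called gene of the list changed sign under library size scaling, and the calls it ended are given with their genes. This scaling also added calls. Among them were Vegfa, lower at 1, 2 and 3 days, and Flt1, Nrp1, Cdh5, Esam, Mmrn2 and Fli1, lower at 5 days. Statements below that a gene was not called refer to TMM.

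Among the secreted ligands, Vegfb and Angpt1 fell at every duration, Angpt2 rose at 6 hours, and Vegfa was not called at any duration. Vegfa (chr17:46016993-46032369, minus strand, GRCm38 with the GENCODE vM21 annotation, as all positions below) is the VEGF ligand that drives sprouting. Its level was 195 ± 16.8 CPM in RT controls, 191 ± 25.2 at 6 hours, 171 ± 17.5 at 3 days and 228 ± 22.4 at 5 days (SD, n = 5). With TMM none of its 6 comparisons with RT controls was called, with log2 FC −0.18 at 3 days (edgeR FDR = 0.18) to 0.22 at 5 days (SE 0.10, edgeR FDR = 0.0941). With library size only, Vegfa was called lower at 1 day (log2 FC −0.35, edgeR FDR = 0.019) and 2 days (log2 FC −0.40, edgeR FDR = 0.00972). It was also called lower at 3 days with that scaling (log2 FC −0.32, edgeR FDR = 0.0444). Its standard errors lay between 0.10 and 0.13 on the log2 scale. Vegfc, the ligand of lymphatic growth, was at most 1.05 CPM on average in any group and did not pass the filter.

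Vegfb (chr19:6982473-6987651, minus strand), a VEGFR1 ligand, was 129, 135, 133, 144 and 139 CPM in the 5 RT controls and 95.6, 99.9, 95.5, 92.9 and 97.5 at 6 hours. It was 66.7, 59.1, 79.3, 71.3 and 68.2 at 1 day, 57.2, 50.7, 53.2, 65.0 and 65.0 at 2 days and 52.4, 62.8, 51.2, 71.3 and 57.5 at 3 days. The values were 50.7, 60.1, 68.6, 90.4 and 93.2 at 4 days and 62.7, 82.5, 80.6, 84.5 and 77.5 at 5 days. Every cold-exposed mouse lay below every control at all 6 durations. Vegfb fell by 6 hours (log2 FC −0.52, SE 0.08, edgeR FDR = 8.36e-05), reached its lowest mean at 2 days at 58.2 ± 6.63 CPM against 136 ± 5.90 in controls (log2 FC −1.24, SE 0.10, edgeR FDR = 4.98e-07), and was still lower at 5 days (log2 FC −0.82, edgeR FDR = 5.62e-06).

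Angpt1 (chr15:42424723-42676977, minus strand), the Tie2 agonist, had the largest fold change of the list in the edgeR fits. RT controls had 39.3, 45.0, 56.1, 45.7 and 50.2 CPM and the mice at 6 hours 6.57, 2.32, 5.38, 5.20 and 5.39 CPM. It stood at 7.08, 8.93, 9.52, 5.64 and 11.3 at 1 day, 11.4, 10.0, 11.9, 19.5 and 12.1 at 2 days and 10.5, 13.6, 10.7, 12.8 and 16.5 at 3 days. At 4 days it was 8.70, 11.4, 15.1, 6.43 and 8.67, and at 5 days 9.26, 10.7, 7.86, 9.64 and 8.19. No cold-exposed mouse reached the lowest control. The level at 6 hours was 9.62-fold lower than in controls (log2 FC −3.27, SE 0.18, edgeR FDR = 4.89e-10), and from 1 to 5 days it lay between −2.47 and −1.88 on the log2 scale, with edgeR adjusted p of at most 7.58e-07. Mural cells, an important source of Angpt1, were followed with 10 markers whose summed level was 458 to 481 CPM in controls and 379.5 to 442 at 6 hours, below all controls. Of this sum, Rgs5 alone had a mean of 305 CPM in controls. At 6 hours 3 of the 10 were higher and 2 lower (21.5% and 21.0% of all genes), with a median log2 FC of 0.11. The sum was 343 to 399 at 1 day, 414 to 548 at 2 days and 407 to 514 at 3 days. It was 379.6 to 451 at 4 days and 298 to 363 at 5 days. Only the sums at 2 and 3 days overlapped the controls. The part of mural cells in the Angpt1 values was not tested. Exons of the opposite-strand gene Gm17473 overlap those of Angpt1, and the strand setting of the counting is not given in the sources used here.

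Angpt2, the context-dependent Tie2 ligand, was higher at 6 hours, the only comparison with RT controls in which it passed the filter on low counts. The higher counts at 6 hours brought it past the filter there, so the filtered durations do not show how long the rise lasted. Its levels were 2.32, 0.974, 0.873, 0.495 and 2.55 CPM in RT controls, 1.05, 10.7, 5.16, 3.78 and 3.90 at 6 hours and 4.10, 1.60, 1.79, 2.05 and 1.15 at 1 day. They were 1.82, 0.93, 0.721, 2.11 and 0.578 at 2 days and 2.11, 1.65, 1.07, 0.966 and 1.55 at 3 days. Values of 1.27, 0.691, 3.81, 0.402 and 2.17 at 4 days and 1.51, 1.09, 2.18, 2.36 and 1.60 at 5 days followed. The mice at 6 hours overlapped the controls and spread widely, and the group was higher (log2 FC 1.74, SE 0.50, edgeR FDR = 0.00937). At the other durations Angpt2 did not pass the filter on low counts, and exact permutation tests of log2 CPM, which can give no p below 0.00794 with 5 against 5 mice, gave p = 0.238 at 1 day and p = 0.341 at 5 days. Apln, the ligand of the apelin receptor, was 3.13 ± 2.65 CPM in controls and was not called at any duration.

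**Figure D2:**
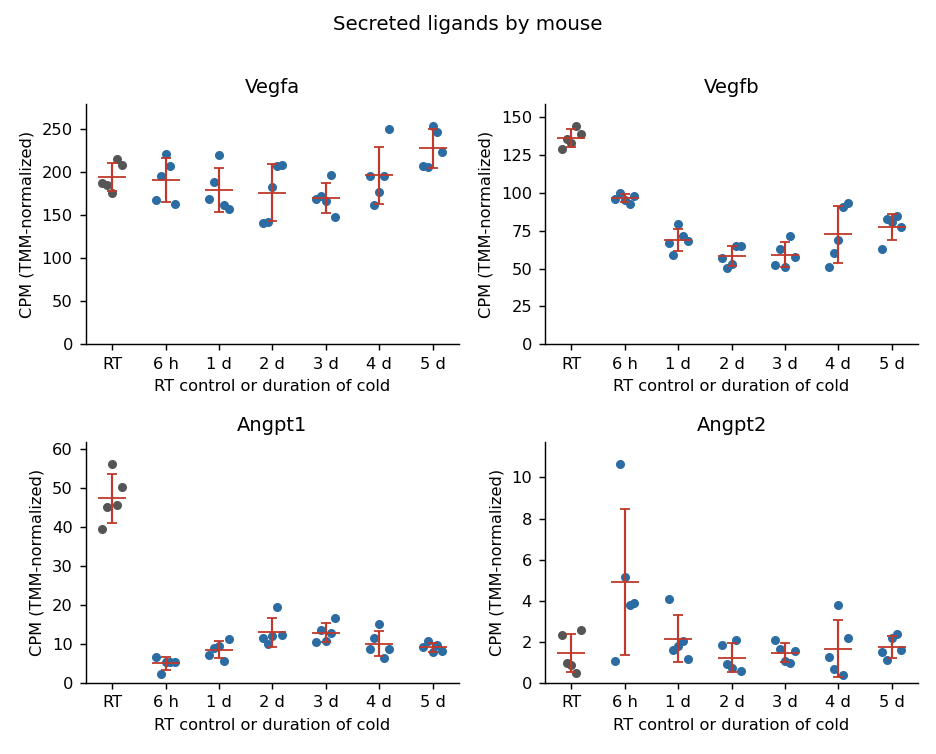
Levels of Vegfa, Vegfb, Angpt1 and Angpt2 in CPM (y axis) by duration of cold (x axis), where each point is a mouse and the bars give the mean and SD of 5 mice. Vegfa overlaps the controls at every duration, Vegfb and Angpt1 lie below all controls at every duration, and Angpt2 is highest and most spread at 6 hours.

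Of the VEGF receptors, Kdr rose early and returned towards the control level. Kdr (chr5:75932827-75978458, minus strand), the main signalling receptor of VEGF-A, was 166, 132, 106, 142 and 113 CPM in RT controls and 237, 273, 239.9, 260.2 and 318 at 6 hours. Its values were 365, 287, 288, 354 and 266 at 1 day and 268, 193, 177, 183 and 169 at 2 days. They were 198, 235, 158, 137 and 176 at 3 days, 143, 135, 219, 206 and 190.1 at 4 days and 175, 158, 198, 136 and 114 at 5 days. The groups at 6 hours, 1 day and 2 days did not overlap the controls, and the later groups did. Kdr was 1.99-fold higher at 6 hours (log2 FC 0.99, SE 0.12, edgeR FDR = 5.14e-06) and 2.36-fold higher at 1 day (log2 FC 1.24, SE 0.13, edgeR FDR = 2.53e-06). The rise was smaller at 2 days (log2 FC 0.58, edgeR FDR = 0.00732), 3 days (log2 FC 0.46, edgeR FDR = 0.0223) and 4 days (log2 FC 0.43, edgeR FDR = 0.0277), and at 5 days it was not called (log2 FC 0.24, SE 0.14, edgeR FDR = 0.204). Scaling by library size only ended the calls at 2 days (log2 FC 0.38, edgeR FDR = 0.111), 3 days (log2 FC 0.32, edgeR FDR = 0.0904) and 4 days (log2 FC 0.29, edgeR FDR = 0.11). The 3 day call was lost without any 1 of RT replicates 3 and 5 and 3 days replicates 1 and 2 (log2 FC 0.35 to 0.43, edgeR FDR up to 0.0652). The 4 day call was lost without any 1 of RT replicates 3 and 5 and 4 days replicates 3 and 4 (log2 FC 0.35 to 0.39, edgeR FDR up to 0.078).

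Flt1, the decoy-like VEGFR1, was 87.7 ± 14.8 CPM in controls and 113 ± 13.3 at 6 hours, where it was higher (log2 FC 0.35, SE 0.12, edgeR FDR = 0.0221). It was not called from 1 day on with TMM, and its mean at 5 days was 72.0 ± 7.91 CPM. Library size scaling called it lower at 5 days (log2 FC −0.52, edgeR FDR = 0.00395). The 6 hour call was lost without any 1 of RT replicates 3 and 4 (log2 FC 0.31 to 0.32, edgeR FDR up to 0.0626). It was also lost with library size only (log2 FC 0.16, edgeR FDR = 0.296). Nrp1, a co-receptor of VEGF and semaphorins, was never called, at 202 ± 25.5 CPM in controls and 238 ± 25.9 at 1 day (log2 FC 0.24, SE 0.11, edgeR FDR = 0.0985).

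Both Tie receptors were lower. Tek, the Tie2 receptor of the angiopoietins, was 11.9 ± 1.30 CPM in RT controls, 9.00 ± 0.958 at 6 hours, 8.54 ± 0.895 at 2 days and 6.53 ± 2.42 at 5 days. It fell at 6 hours (log2 FC −0.42, edgeR FDR = 0.0314), 2 days (log2 FC −0.49, edgeR FDR = 0.025), 4 days (log2 FC −0.53, edgeR FDR = 0.021) and 5 days (log2 FC −0.88, SE 0.21, edgeR FDR = 0.00306), and was not called at 1 day (log2 FC −0.29, edgeR FDR = 0.202) or 3 days (log2 FC −0.42, edgeR FDR = 0.102). The 6 hour call was lost without any 1 of RT replicates 1 and 4 and 6 hours replicates 1, 2 and 4 (log2 FC −0.41 to −0.36, edgeR FDR up to 0.0831). The 2 day call was lost without any 1 of RT replicates 1 and 4 and 2 days replicate 5 (log2 FC −0.48 to −0.42, edgeR FDR up to 0.0603). The 4 day call was lost without any 1 of RT replicate 1 and 4 days replicates 1 and 4 (log2 FC −0.47 to −0.44, edgeR FDR up to 0.0565). Without the filter on low counts Tek was not called at 6 hours, 2 days or 4 days, and DESeq2 and all 7 groups in one fit also ended the calls at 6 hours (log2 FC −0.41 to −0.39, FDR up to 0.13) and 2 days (log2 FC −0.48 to −0.47, FDR up to 0.125).

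Tie1, the orphan partner of Tie2, was 16.6 ± 3.44 CPM in controls, 10.9 ± 2.47 at 6 hours, 14.4 ± 6.47 at 2 days and 8.27 ± 2.87 at 5 days. It was lower at 6 hours (log2 FC −0.61, edgeR FDR = 0.0109), 4 days (log2 FC −0.76, edgeR FDR = 0.00328) and 5 days (log2 FC −1.01, SE 0.22, edgeR FDR = 0.00151), when the 5 mice had 4.52 to 11.3 CPM against 11.8 to 20.4 in controls without overlap. It was not called at 1 day (log2 FC −0.44, edgeR FDR = 0.0676), 2 days (log2 FC −0.18, edgeR FDR = 0.636) or 3 days (log2 FC −0.38, edgeR FDR = 0.106). Both Tie receptors had their lowest means at 5 days.

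Aplnr (chr2:85136225-85139923, plus strand), the apelin receptor, which in adult vessels marks venous and sprouting endothelium, had a deep and partly transient fall. RT controls had 4.65, 5.84, 5.67, 6.10 and 9.46 CPM, the mice at 6 hours 0.788, 0.463, 0.448, 1.42 and 0.557 and those at 1 day 0.932, 0.229, 0.359, 2.05 and 3.92. At 2 days the values were 9.39, 7.67, 4.15, 1.58 and 2.602, and at 3 days 4.45, 3.50, 3.93, 5.60 and 3.61. They were 2.54, 3.11, 2.95, 4.02 and 1.99 at 4 days and 1.29, 2.39, 3.06, 3.54 and 2.40 at 5 days. The groups at 6 hours, 1 day, 4 days and 5 days did not overlap the controls, whereas those after 2 and 3 days did. Aplnr was 8.65-fold lower at 6 hours (log2 FC −3.11, SE 0.36, edgeR FDR = 1.99e-06), a level of 2 to 6 reads per library, and lower at 1 day (log2 FC −2.14, edgeR FDR = 0.00182), 4 days (log2 FC −1.13, edgeR FDR = 0.0027) and 5 days (log2 FC −1.32, edgeR FDR = 0.00156). It was not called at 2 days (log2 FC −0.28, SE 0.37, edgeR FDR = 0.607) or 3 days (log2 FC −0.58, SE 0.24, edgeR FDR = 0.0775).

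Eng (chr2:32646595-32682669, plus strand) encodes endoglin, a TGF-beta and BMP9 co-receptor of endothelial cells. Its levels were 15.1, 11.9, 9.17, 8.74 and 11.5 CPM in RT controls and 33.9, 33.6, 31.8, 35.2 and 29.7 at 6 hours. They were 37.3, 47.2, 35.5, 43.6 and 37.8 at 1 day, 32.1, 45.1, 34.3, 26.6 and 26.9 at 2 days and 29.3, 31.1, 26.8, 26.7 and 32.7 at 3 days. The last groups had 24.3, 20.03, 29.98, 24.3 and 33.2 at 4 days and 28.9, 29.6, 26.9, 14.4 and 20.8 at 5 days. All cold-exposed mice up to 4 days lay above every control, and the groups overlapped only at 5 days. Eng rose within 6 hours (log2 FC 1.52, SE 0.14, edgeR FDR = 1.68e-07), was highest at 1 day at 3.56-fold the control level (log2 FC 1.83, SE 0.15, edgeR FDR = 1.48e-07) and remained higher at 5 days (log2 FC 1.09, SE 0.20, edgeR FDR = 0.000307). Exons of the opposite-strand gene Fpgs overlap Eng. Robo4, a guidance receptor that keeps vessels tight, was called at 6 hours and at no later duration. It was higher then, at 8.99 ± 1.32 CPM against 5.49 ± 0.831 (log2 FC 0.70, SE 0.19, edgeR FDR = 0.00565), and at 1 day it was not called (log2 FC 0.43, SE 0.20, edgeR FDR = 0.0993). A difference between durations was tested only between 5 days and 6 hours, as given further on.

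Of the 6 junction and surface proteins, 2 were higher at 6 hours and 4 of the 5 tested after 1 and 2 days. After 3 and 4 days 2 of 5 were higher, at 5 days 0 of 6, and none was lower with TMM. Of all genes tested, 21.5% were higher and 21.0% lower at 6 hours, 18.9% and 17.8% at 1 day, and 16.4% and 14.7% at 2 days. These shares were 18.3% and 15.5% at 3 days, 19.4% and 18.6% at 4 days and 20.2% and 18.6% at 5 days. At 5 days, edgeR with TMM gave 0 of the 6 an unadjusted p below 0.05, and DESeq2 called 0 of them. With library size only, Cdh5 (log2 FC −0.36, edgeR FDR = 0.0345) and Esam (log2 FC −0.39, edgeR FDR = 0.0252) were called lower at 5 days.

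Pecam1 (chr11:106654217-106750628, minus strand), the pan-endothelial adhesion molecule CD31, was 45.3, 40.7, 55.2, 52.5 and 51.1 CPM in RT controls and 89.3, 137, 99.3, 110.4 and 89.3 at 6 hours. The values were 98.2, 104, 105, 100.5 and 101 at 1 day, 98.9, 91.2, 80.2, 69.5 and 78.9 at 2 days and 77.0, 84.6, 80.2, 52.0 and 78.1 at 3 days. They were 56.5, 51.1, 71.9, 74.2 and 78.2 at 4 days and 59.2, 61.1, 77.3, 38.97 and 39.7 at 5 days. Mice at 6 hours, 1 day and 2 days lay above all controls, and the later groups overlapped them. Pecam1 was 2.12-fold higher at 6 hours (log2 FC 1.08, SE 0.13, edgeR FDR = 3.18e-06) and 2.08-fold higher at 1 day (log2 FC 1.05, edgeR FDR = 9.72e-07), with smaller rises at 2 days (log2 FC 0.77, edgeR FDR = 0.000204), 3 days (log2 FC 0.61, edgeR FDR = 0.00189) and 4 days (log2 FC 0.43, edgeR FDR = 0.013). It was not called at 5 days (log2 FC 0.17, SE 0.16, edgeR FDR = 0.446). With library size only the 4 day call was lost (log2 FC 0.29, edgeR FDR = 0.069).

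Emcn (chr3:137341067-137432185, plus strand), endomucin, a sialomucin of capillary and venous endothelium, rose later. It was 17.2, 10.3, 10.3, 14.7 and 12.6 CPM in controls and 21.3, 9.96, 13.7, 18.2 and 13.8 at 6 hours. It was 27.4, 23.6, 24.2, 28.2 and 25.8 at 1 day, 28.6, 30.2, 26.0, 26.3 and 24.3 at 2 days and 28.3, 28.4, 23.2, 22.0 and 30.9 at 3 days. At 4 days it was 17.2, 14.8, 24.9, 23.7 and 20.8, and at 5 days 17.0, 18.7, 23.1, 12.8 and 14.2. Only the groups after 1, 2 and 3 days lay clear of the controls. Emcn was not called at 6 hours (log2 FC 0.21, SE 0.20, edgeR FDR = 0.423), was higher at 1 day (log2 FC 0.98, edgeR FDR = 7.79e-05), 2 days (log2 FC 1.05, SE 0.15, edgeR FDR = 8.28e-05), 3 days (log2 FC 1.03, edgeR FDR = 0.000121) and 4 days (log2 FC 0.63, edgeR FDR = 0.00979), and was not called at 5 days (log2 FC 0.39, SE 0.18, edgeR FDR = 0.108).

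Esam, an adhesion molecule of tight junctions, was 40.5 ± 7.05 CPM in controls and higher at 6 hours at 63.4 ± 6.44 (log2 FC 0.63, edgeR FDR = 0.000384), 1 day at 67.0 ± 9.83 (log2 FC 0.72, edgeR FDR = 0.000451) and 2 days at 60.5 ± 11.3 (log2 FC 0.58, edgeR FDR = 0.00748). From 3 days on it was not called (log2 FC 0.27, edgeR FDR = 0.181 at 3 days and log2 FC −0.16, edgeR FDR = 0.353 at 5 days), and with library size only the 2 day call was lost (log2 FC 0.37, edgeR FDR = 0.119). Cdh5, VE-cadherin, the adhesion protein of endothelial junctions, was 57.2 ± 5.49 CPM in controls and 59.3 ± 6.46 at 6 hours (not called, log2 FC 0.03, edgeR FDR = 0.846), and it was higher at 1 day (log2 FC 0.37, SE 0.11, edgeR FDR = 0.0151) and 2 days (log2 FC 0.33, SE 0.12, edgeR FDR = 0.0431). Both calls were lost with library size only (log2 FC 0.14, edgeR FDR = 0.343 at 1 day and log2 FC 0.12, edgeR FDR = 0.569 at 2 days), and the 2 day call also without the filter on low counts (log2 FC 0.35, edgeR FDR = 0.0635). The 2 day call was lost without any 1 of RT replicates 1, 2, 3 and 4 and 2 days replicates 1, 2 and 3 (log2 FC 0.28 to 0.33, edgeR FDR up to 0.115). Plvap, the diaphragm protein of fenestrated capillaries, and Cldn5, the tight junction claudin, were at 3.98 ± 1.40 and 2.31 ± 1.36 CPM in controls and were never called.

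Other pan-endothelial markers, 12 genes outside the list such as Adgrl4 and Ramp2, were set beside these junction genes. Their summed level was 245 to 283 CPM in RT controls, 294 to 322 at 6 hours, 295 to 353 at 1 day and 251 to 345 at 2 days. It was 276 to 325 at 3 days, 220 to 309 at 4 days and 190.5 to 282 at 5 days. The sums at 6 hours and 1 day lay above all controls, and the later ones overlapped them. Adgrl4 alone went from a mean of 45.5 CPM in controls to 85.4 at 1 day. The median log2 FC of the 12 markers was 0.08 at 6 hours and 0.02 at 1 day. Single markers were called less uniformly, with 2 higher and 1 lower of 12 at 6 hours (21.5% and 21.0% of all genes), 4 higher and 1 lower of 12 at 1 day (18.9% and 17.8% of all genes) and 1 higher and 2 lower of 12 at 5 days (20.2% and 18.6% of all genes). Whether the number of endothelial cells moved with these sums was not tested.

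**Figure D3:**
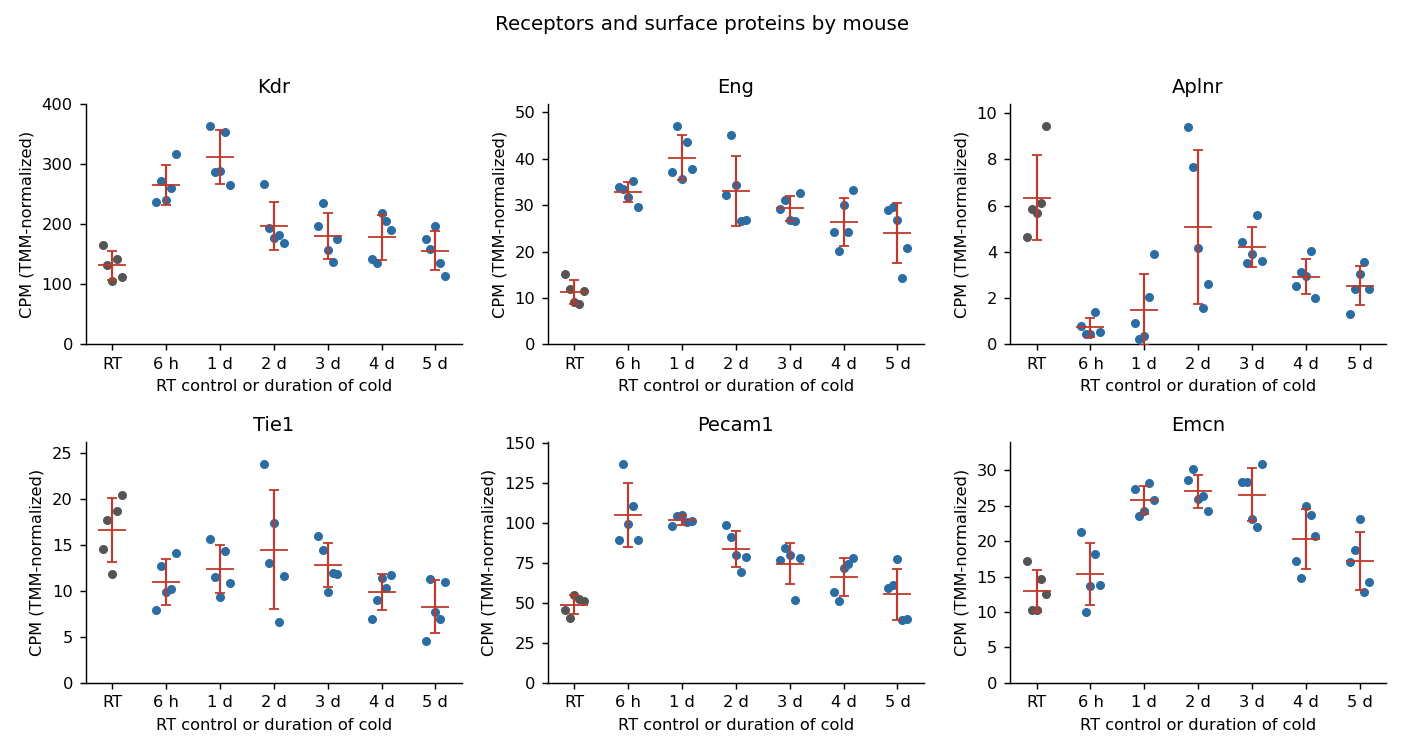
Levels of Kdr, Eng, Aplnr, Tie1, Pecam1 and Emcn in CPM (y axis) by duration of cold (x axis), with a point for each mouse and the mean and SD of 5 mice. Kdr and Pecam1 peak at 6 hours to 1 day, Emcn is highest from 1 to 3 days, the mean of Eng stays above that of the controls, and Aplnr drops at 6 hours and lies closer to them after 2 and 3 days.

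Of the 3 Notch genes, Notch1 was higher at 6 hours and Dll4 lower at 2 days. Both calls were near the threshold and were lost without any 1 of several mice. Dll4 (chr2:119325784-119335962, plus strand), the Notch ligand of tip and arterial cells, was 3.68, 6.23, 4.15, 5.28 and 5.28 CPM in RT controls and 2.10, 7.65, 9.64, 3.07 and 5.20 at 6 hours. It was 3.54, 1.15, 3.23, 0.257 and 4.84 at 1 day, 0.757, 2.33, 1.62, 5.00 and 2.89 at 2 days and 3.75, 3.70, 3.75, 3.67 and 4.64 at 3 days. The last groups had 4.17, 3.8, 6.24, 3.21 and 2.35 at 4 days and 3.45, 3.70, 5.02, 3.54 and 4.79 at 5 days. All groups overlapped the controls, and those at 6 hours, 1 day and 2 days spread most. Dll4 was lower at 2 days (log2 FC −1.06, SE 0.38, edgeR FDR = 0.0418) but not called at 6 hours (log2 FC 0.16, SE 0.32, edgeR FDR = 0.725) or 1 day (log2 FC −0.88, SE 0.40, edgeR FDR = 0.0989). The 2 day call was lost without any 1 of RT replicates 2, 3, 4 and 5 and 2 days replicates 1, 2, 3 and 5 (log2 FC −1.12 to −0.79, edgeR FDR up to 0.103). DESeq2 did not call it either (log2 FC −1.03, DESeq2 FDR = 0.0563). Exons of Gm14207, on the opposite strand, overlap those of Dll4.

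Notch1, the receptor that Dll4 engages in sprouting vessels, was 18.6 ± 0.841 CPM in controls and 23.1 ± 1.84 at 6 hours, without overlap (log2 FC 0.29, SE 0.11, edgeR FDR = 0.0403), and was not called at any later duration. The call was lost without any 1 of RT replicates 2, 3, 4 and 5 and 6 hours replicates 2, 3 and 4 (log2 FC 0.27 to 0.31, edgeR FDR up to 0.0814). The call also fell away with library size only, without the filter on low counts, with DESeq2 and with all 7 groups in one fit (log2 FC 0.10 to 0.32, FDR up to 0.481). Exons of 0610009E02Rik and Gm13568 overlap Notch1 on the opposite strand. Notch4, a receptor largely restricted to endothelium, was 4.19 ± 1.69 CPM in controls and 6.37 ± 1.17 at 6 hours and was never called (log2 FC 0.57, SE 0.28, edgeR FDR = 0.106).

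Nos3 (chr5:24364810-24384474, plus strand), endothelial nitric oxide synthase, was the one gene of the secreted proteins and enzymes to fall. It was 11.2, 10.9, 11.6, 8.91 and 8.73 CPM in RT controls, 3.68, 4.87, 6.72, 10.2 and 6.50 at 6 hours and 6.89, 3.89, 6.10, 6.92 and 6.91 at 1 day. Its values were 9.24, 8.84, 6.67, 6.58 and 6.36 at 2 days and 8.89, 8.64, 3.57, 6.95 and 6.70 at 3 days. They were 9.06, 7.08, 8.49, 9.64 and 7.59 at 4 days and 4.74, 16.5, 13.8, 10.4 and 7.79 at 5 days. Only the mice at 1 day lay wholly below the controls, and those at 5 days spread from below to above them. Nos3 was lower at 6 hours (log2 FC −0.69, edgeR FDR = 0.0179) and 1 day (log2 FC −0.73, SE 0.19, edgeR FDR = 0.00545), and was not called at 2 days (log2 FC −0.44, edgeR FDR = 0.075), 3 days (log2 FC −0.56, edgeR FDR = 0.0578), 4 days (log2 FC −0.29, edgeR FDR = 0.165) or 5 days (log2 FC 0.05, SE 0.25, edgeR FDR = 0.898). The 6 hour call was lost without 6 hours replicate 2 (log2 FC −0.60, edgeR FDR = 0.0516). Exons of Atg9b and Gm15587 overlap Nos3 on the opposite strand.

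Egfl7, a matrix protein secreted by endothelial cells and the host gene of miR-126, was 40.5 ± 6.85 CPM in controls, 49.96 ± 3.72 at 6 hours (log2 FC 0.28, SE 0.12, edgeR FDR = 0.0635) and 59.6 ± 13.2 at 1 day. The 1 day group lay above all controls and was higher (log2 FC 0.55, SE 0.15, edgeR FDR = 0.00871), though not with library size only (log2 FC 0.34, edgeR FDR = 0.102). Its exons overlap Agpat2 on the opposite strand and Gm20532 on the same strand, so its counts are uncertain. Mmrn2, a matrix glycoprotein of vessels, and Ece1, the endothelin-converting enzyme, were 18.7 ± 2.34 and 41.8 ± 3.49 CPM in controls and were never called. Vwf, the platelet-tethering factor of larger vessels, was 3.74 ± 0.918 CPM in controls and 2.17 ± 1.07 at 6 hours, again without a call (log2 FC −0.77, SE 0.34, edgeR FDR = 0.0736).

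Esm1, endocan, a marker of tip cells, had 9 reads in all, in 7 of the 35 mice. RT controls had 0 reads, which allows up to 0.127 CPM over the group (3 reads, counting error only). A change of Esm1 was not detectable at this depth.

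Sox18 (chr2:181669836-181671640, minus strand), a SOXF factor of embryonic and growing vessels, had the largest rise of the list. RT controls had 3.29, 2.92, 2.40, 1.81 and 4.91 CPM and the mice at 6 hours 6.83, 11.1, 18.2, 16.3 and 6.32. It was 4.47, 8.70, 6.64, 0 and 10.8 at 1 day, 22.7, 27.4, 18.9, 14.2 and 16.8 at 2 days and 10.1, 13.8, 13.2, 6.95 and 8.25 at 3 days. It was 8.52, 5.53, 9.88, 1.41 and 4.52 at 4 days and 6.46, 1.31, 2.18, 9.84 and 5.99 at 5 days. The groups at 6 hours, 2 days and 3 days lay above every control, and the 1 day group, in which replicate 4 had 0 reads (up to 0.78 CPM), overlapped them. Sox18 was higher at 6 hours (log2 FC 1.90, SE 0.32, edgeR FDR = 0.000142), 2 days (log2 FC 2.69, SE 0.25, edgeR FDR = 1.52e-06) and 3 days (log2 FC 1.78, edgeR FDR = 0.000119). It was not called at 1 day (log2 FC 1.00, SE 0.51, edgeR FDR = 0.139), 4 days (log2 FC 0.96, SE 0.40, edgeR FDR = 0.0655) or 5 days (log2 FC 0.75, SE 0.42, edgeR FDR = 0.172). It became called higher at 1 day without replicate 4 (log2 FC 1.30, edgeR FDR = 0.00429). The same held at 4 days without replicate 4 (log2 FC 1.22, edgeR FDR = 0.00621) or RT replicate 5 (edgeR FDR = 0.0369). At 5 days it was called without replicate 2 (edgeR FDR = 0.0455). Without the filter on low counts it was called at 1 and 4 days (edgeR FDR = 0.00375 and 0.00443).

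With all mice and TMM, no other endothelial transcription factor was called against RT controls. Sox17, the arterial SOXF factor, was 7.45 ± 2.07 CPM in controls and 10.8 ± 2.25 at 6 hours, just short of the threshold (log2 FC 0.52, SE 0.21, edgeR FDR = 0.0544). At 6 hours it became called higher without any 1 of RT replicates 2 and 5 and 6 hours replicates 2 and 4 (edgeR FDR = 0.0291 to 0.0484). At 1 day it was called higher without 1 day replicate 4 (log2 FC 0.58, edgeR FDR = 0.0434). Sox7, its relative, was 6.42 ± 1.61 and 7.78 ± 2.88 CPM, and Erg, an ETS factor of endothelial cells, was 3.96 ± 2.25 and 3.58 ± 0.683 CPM. Fli1, an ETS factor shared by endothelial and blood cells, was 36.7 ± 3.99 CPM in controls and 46.1 ± 18.0 at 2 days (log2 FC 0.33, SE 0.21, edgeR FDR = 0.247). Fli1 became called lower at 4 days without 4 days replicate 3 (log2 FC −0.32, edgeR FDR = 0.0389). At 5 days the same held without RT replicate 2 (edgeR FDR = 0.0326) or 5 days replicate 2 (edgeR FDR = 0.0112). In 2 of the mice at 2 days, replicates 1 and 2, Fli1 was 66.5 and 64.4 CPM, and the 7 macrophage markers summed to 156 and 111 CPM there against 66.8 to 146 in controls. Their part in the Fli1 values was not tested.

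Both hypoxia-inducible factors were called higher from 1 day on. Epas1 (chr17:86753700-86833410, plus strand), HIF-2 alpha, abundant in endothelium and adipocytes, was 165, 141, 176, 151 and 150.3 CPM in RT controls and 162, 159, 189, 189 and 157 at 6 hours. It was 210.2, 255, 235, 206 and 216 at 1 day and 208, 249, 229.9, 242 and 256 at 2 days. The later values were 273, 231, 232, 302 and 250.2 at 3 days, 266, 281, 256, 359 and 295 at 4 days and 243, 328, 296, 318 and 264 at 5 days. From 1 day on, every cold-exposed mouse lay above every control, whereas the 6 hour group overlapped them. Epas1 was not called at 6 hours (log2 FC 0.11, SE 0.10, edgeR FDR = 0.384), and was higher at 1 day (log2 FC 0.52, edgeR FDR = 0.000634), 2 days (log2 FC 0.59, edgeR FDR = 0.000379), 3 days (log2 FC 0.73, edgeR FDR = 5.65e-05), 4 days (log2 FC 0.89, SE 0.10, edgeR FDR = 5.48e-06) and 5 days (log2 FC 0.88, edgeR FDR = 4.24e-06). Library size scaling shrank the early rises to 0.29 at 1 day and 0.36 at 2 days on the log2 scale, still called.

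Hif1a, HIF-1 alpha, was 35.0 ± 7.74 CPM in controls and 43.8 ± 4.21 at 6 hours (not called, log2 FC 0.31, SE 0.14, edgeR FDR = 0.079). At 6 hours Hif1a became called higher with all 7 groups in one fit (log2 FC 0.33, edgeR FDR = 0.0431). The same held without RT replicate 1 (log2 FC 0.43, edgeR FDR = 0.0135). It was higher at 1 day at 55.7 ± 8.06 (log2 FC 0.68, SE 0.15, edgeR FDR = 0.00172), 2 days (log2 FC 0.52, edgeR FDR = 0.0124), 3 days (log2 FC 0.58, edgeR FDR = 0.00395), 4 days (log2 FC 0.62, edgeR FDR = 0.00308) and 5 days (log2 FC 0.48, edgeR FDR = 0.0098). Only the 3 day group lay clear of the controls. Library size scaling ended the calls at 2 days (log2 FC 0.30, edgeR FDR = 0.162) and 5 days (log2 FC 0.25, edgeR FDR = 0.181). Exons of Gm15283, on the opposite strand, and Gm49321, on the same strand, overlap Hif1a. These are transcript levels, and the proteins of both factors are controlled mainly by their degradation in oxygen.

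**Figure D4:**
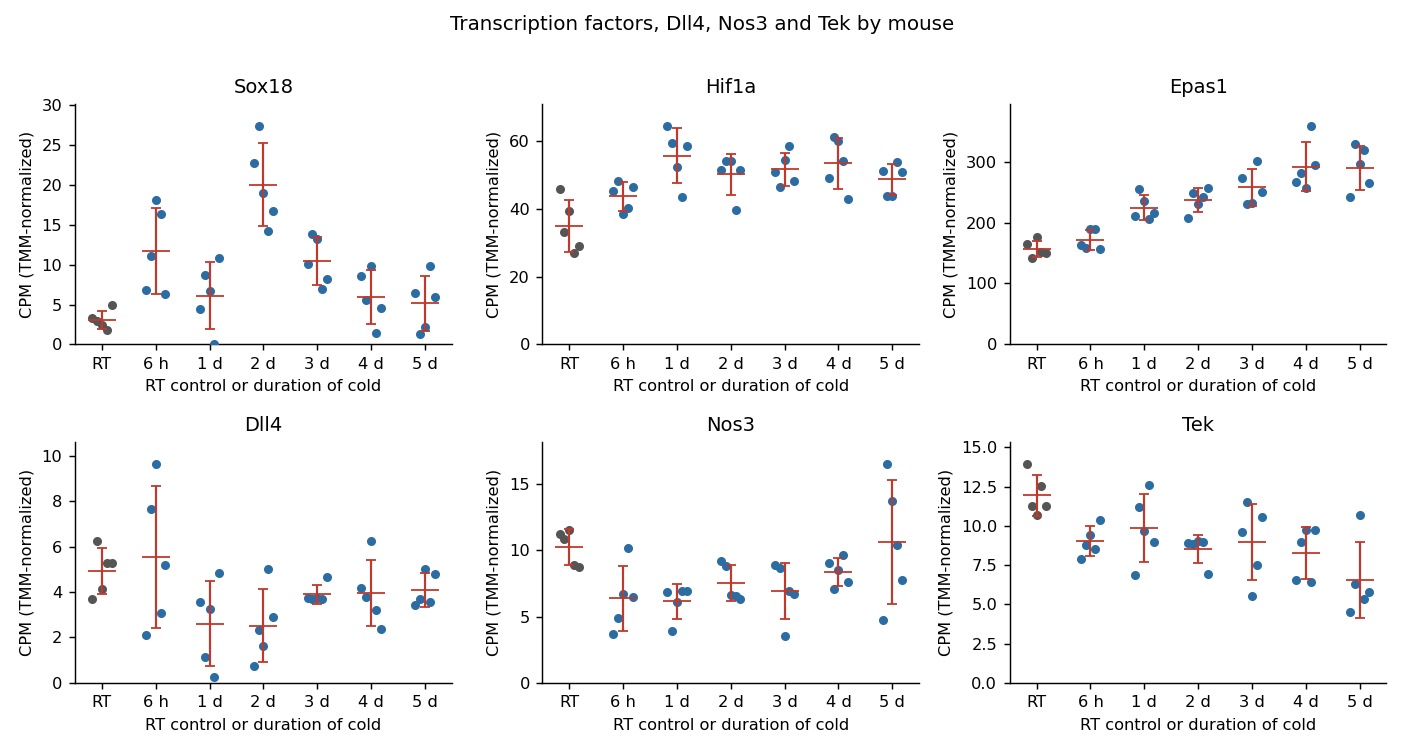
Levels of Sox18, Hif1a, Epas1, Dll4, Nos3 and Tek in CPM (y axis) by duration of cold (x axis), with a point for each mouse and the mean and SD of 5 mice. Sox18 is highest at 2 days with wide spread, Epas1 lies above all controls from 1 day on, and Tek has its lowest mean at 5 days.

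The mice at 5 days were also compared with those at 6 hours, to ask which genes of the list differed between acute and longer cold. Here 2 of the 33 genes tested were higher (6.06%, all genes 19.0%) and 12 were lower (36.4%, all genes 16.9%), with a median log2 fold change of −0.30 against −0.01 over all genes. Of the 12, 9 had been called higher at 6 hours against RT controls, a comparison that shares the same 6 hour mice. Pecam1 (log2 FC −0.91, edgeR FDR = 0.000196), Esam (log2 FC −0.78, edgeR FDR = 2.43e-05), Kdr (log2 FC −0.75, edgeR FDR = 0.000125) and Flt1 (log2 FC −0.64, edgeR FDR = 0.000135) were lower at 5 days without overlap of the groups. Sox17, not called against RT controls, was also lower without overlap (log2 FC −0.74, edgeR FDR = 0.00951), at 4.39 to 7.62 CPM against 8.04 to 13.1. With scaling by library size only, the all-gene calls here were 1658 higher and 1856 lower, against 1952 and 1735 with TMM.

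Angpt2 was lower at 5 days than at 6 hours (log2 FC −1.46, SE 0.44, edgeR FDR = 0.012). So were Sox18 (log2 FC −1.15, edgeR FDR = 0.0221), Robo4 (log2 FC −0.54, edgeR FDR = 0.045), Notch1 (log2 FC −0.47, edgeR FDR = 0.0207) and Egfl7 (log2 FC −0.45, edgeR FDR = 0.0267). Eng (log2 FC −0.43, edgeR FDR = 0.0407) and Vegfb (log2 FC −0.30, edgeR FDR = 0.0267) were lower as well. Angpt1 was higher at 5 days than at 6 hours (log2 FC 0.89, SE 0.24, edgeR FDR = 0.006), although still below the controls, and Epas1 was higher without overlap (log2 FC 0.78, SE 0.11, edgeR FDR = 9.39e-06). Aplnr did not pass the filter in these 10 mice, with 2.54 ± 0.847 CPM at 5 days against 0.735 ± 0.405 at 6 hours, and the exact permutation test gave p = 0.0159 (adjusted p = 0.0948). Vegfa (log2 FC 0.27, SE 0.11, edgeR FDR = 0.0546) and Nos3 (log2 FC 0.74, SE 0.30, edgeR FDR = 0.056) were just short of the threshold.

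Some of these calls were lost when 1 mouse was left out. The Angpt2 call was lost without 6 hours replicate 2 (log2 FC −0.98, edgeR FDR = 0.0796). The Sox18 call was lost without any 1 of 6 hours replicates 3 and 4 and 5 days replicates 2 and 3 (log2 FC −1.01 to −0.91, edgeR FDR up to 0.0779). The Robo4 call was lost without any 1 of 6 hours replicates 1, 2, 3 and 5 and 5 days replicates 1, 2, 4 and 5 (log2 FC −0.58 to −0.45, edgeR FDR up to 0.113). The Notch1 call was lost without any 1 of 5 days replicates 4 and 5 (log2 FC −0.41, edgeR FDR up to 0.06). The Egfl7 call was lost without any 1 of 6 hours replicates 2 and 3 and 5 days replicates 2, 4 and 5 (log2 FC −0.43 to −0.35, edgeR FDR up to 0.0843). The Eng call was lost without any 1 of 6 hours replicates 1, 2, 3 and 4 and 5 days replicates 4 and 5 (log2 FC −0.45 to −0.29, edgeR FDR up to 0.11). The Vegfb call was lost without any 1 of 6 hours replicate 2 and 5 days replicate 1 (log2 FC −0.29 to −0.23, edgeR FDR up to 0.0727). Under other settings, Vegfb was lost without the filter on low counts (log2 FC −0.30, edgeR FDR = 0.0771), Eng with DESeq2 (log2 FC −0.44, DESeq2 FDR = 0.0601), Egfl7 with all 7 groups in one fit (log2 FC −0.46, edgeR FDR = 0.0526), and Robo4 without the filter and with DESeq2 (log2 FC −0.55, FDR up to 0.115).

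With TMM, the 15 genes never called against RT controls were Vegfa, Vegfc, Apln, Nrp1, Notch4, Cldn5, Plvap, Esm1, Mmrn2, Vwf, Ece1, Sox7, Sox17, Erg and Fli1. Of them, 11 were tested at all 6 durations, Apln and Cldn5 at some, and Vegfc and Esm1 at none. Cldn5, Plvap, Erg, Vwf and Notch4 had group means between 1.06 and 6.37 CPM, where counting error is large. Among the genes removed by the filter at some duration, Vegfc, Angpt2, Apln and Cldn5 gave exact permutation p of 0.103 or more in each such comparison. The exact test passed the adjusted threshold of 0.05 for no gene of the 21161 in these groups. Its smallest adjusted p lay between 0.0501 and 0.068, and its 0 calls are no sign of stability.

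Further genes of the same pathways were taken from lists of general knowledge, with earlier results of these data known, and give the surroundings of the 36 genes. Among 23 other vascular growth factors and modulators, the calls were 4 higher and 6 lower of 17 tested at 6 hours, 5 higher and 6 lower of 17 at 1 day and 5 higher and 8 lower of 17 at 5 days. The shares of all genes called higher and lower were 21.5% and 21.0%, 18.9% and 17.8% and 20.2% and 18.6%. Fgf1, a fibroblast growth factor, was 5.48 ± 1.30 CPM in controls and 26.6 ± 1.54 at 1 day (log2 FC 2.28, SE 0.16, edgeR FDR = 3.94e-08). Edn1, the vasoconstrictor endothelin 1, was 1.21 ± 0.66 and 4.75 ± 1.68 at 6 hours (log2 FC 1.96, SE 0.38, edgeR FDR = 0.000487). Angptl4, an inhibitor of lipoprotein lipase, fell from 99.2 ± 25.4 to 29.7 ± 1.83 CPM at 6 hours (log2 FC −1.76, SE 0.14, edgeR FDR = 4.2e-08), and Lep, leptin, from 12.0 ± 7.73 to 1.09 ± 0.548 CPM at 5 days (log2 FC −3.44, SE 0.49, edgeR FDR = 2.56e-05).

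Of 16 other vascular receptors, 3 higher and 3 lower of 13 tested were called at 6 hours, 5 higher and 2 lower of 13 at 1 day and 3 higher and 5 lower of 13 at 5 days. At 6 hours this is 23.1% higher and 23.1% lower beside 21.5% and 21.0% of all genes, with 18.9% and 17.8% of all genes at 1 day and 20.2% and 18.6% at 5 days. Plxnd1, the endothelial semaphorin receptor, rose from 15.1 ± 2.27 to 39.9 ± 2.49 CPM at 3 days (log2 FC 1.41, SE 0.12, edgeR FDR = 3.07e-07), and Unc5b, a netrin receptor of vessels, from 5.91 ± 1.59 to 14.1 ± 3.25 CPM at 1 day (log2 FC 1.24, SE 0.21, edgeR FDR = 0.000262). Flt4, the VEGF-C receptor of lymphatic endothelium, was higher at 1 day (log2 FC 1.07, edgeR FDR = 0.0169), a call lost without 1 day replicate 1 (log2 FC 0.79, edgeR FDR = 0.0736) and with library size only. Ednra, an endothelin receptor of smooth muscle, was lower at 5 days (log2 FC −0.94, edgeR FDR = 0.0265), a call lost without any 1 of RT replicates 2, 4 and 5 and 5 days replicates 3 and 5 (log2 FC −0.92 to −0.76, edgeR FDR up to 0.0685).

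Among 11 Notch ligands, receptors and targets outside the list, 0 higher and 2 lower of 8 tested were called at 6 hours, 2 higher and 2 lower of 8 at 1 day and 0 higher and 3 lower of 8 at 5 days. Beside them stand 21.5% and 21.0%, 18.9% and 17.8% and 20.2% and 18.6% of all genes, higher and lower. Hes1, a Notch target used in many cell types, was 27.0 ± 1.62 CPM in controls and 12.2 ± 1.62 at 3 days (log2 FC −1.13, SE 0.12, edgeR FDR = 4.6e-06), and Jag1, a Notch ligand, was 17.2 ± 2.98 and 8.24 ± 1.38 at 4 days (log2 FC −1.06, SE 0.17, edgeR FDR = 0.000112). Hes1 and Jag1 were lower at all 6 durations. The endothelial Notch target Hey1 was higher at 4 days (mean 3.12 CPM against 0.913 in controls, log2 FC 1.74, edgeR FDR = 0.00101). These levels are low, and 9 of the 11 genes passed the filter at 4 days against 8 at the other durations. A rise particular to 4 days cannot be read from this call. The ligand Jag2 was higher at 1 day (log2 FC 0.95, edgeR FDR = 0.00418).

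Of 16 targets of the hypoxia-inducible factors, 8 higher and 4 lower of 14 tested were called at 6 hours, 8 higher and 4 lower of 14 at 1 day, 7 higher and 1 lower of 14 at 3 days and 8 higher and 3 lower of 14 at 5 days. Of all genes, 21.5%, 18.9%, 18.3% and 20.2% were higher and 21.0%, 17.8%, 15.5% and 18.6% were lower in the same comparisons. P4ha1, a collagen prolyl hydroxylase, rose from 8.36 ± 3.06 to 40.7 ± 8.91 CPM at 6 hours (log2 FC 2.27, SE 0.20, edgeR FDR = 9.96e-08), and Pfkfb3, a driver of glycolysis, from 219.8 ± 65.1 to 658 ± 66.3 CPM (log2 FC 1.56, SE 0.16, edgeR FDR = 5.02e-07). The oxygen sensors Egln1 (log2 FC 1.57, edgeR FDR = 1.83e-08 at 4 days) and Egln3 (log2 FC 1.62, edgeR FDR = 3.12e-05 at 5 days) were also higher, whereas Bnip3, a mitophagy receptor, was lower at every duration. At 6 hours neither Epas1 nor Hif1a was called in the separate fit, though Hif1a was called higher with all 7 groups in one fit. Of 5 partners of these factors, Arnt, their common dimer partner, was lower at 5 days (log2 FC −0.84, SE 0.18, edgeR FDR = 0.00101), and Hif1an, the asparaginyl hydroxylase that inhibits them, was higher at 1 day (log2 FC 0.42, edgeR FDR = 0.0235), a call lost without any 1 of RT replicate 4 and 1 day replicates 1 and 5 (log2 FC 0.36 to 0.40, edgeR FDR up to 0.0699) and with library size only.

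Markers of endothelial subtypes and of other cells of the pad were summed per mouse and are given in CPM as ranges. The 12 capillary markers, several of which, such as Fabp4, Cd36 and Aqp7, adipocytes also express, summed to 7645 to 11360 in RT controls, 7932 to 12120 at 6 hours, 6568 to 11020 at 1 day and 7330 to 7982 at 5 days. Their calls were 6 higher and 1 lower of 12 at 6 hours (21.5% and 21.0% of all genes), 5 higher and 4 lower of 12 at 3 days (18.3% and 15.5%) and 2 higher and 4 lower of 12 at 5 days (20.2% and 18.6%), so they did not move one way. Gpihbp1, the capillary anchor of lipoprotein lipase, was higher at 6 hours (log2 FC 0.82, SE 0.10, edgeR FDR = 3.08e-06), and Timp4, a protease inhibitor, was lower at 5 days (log2 FC −2.03, SE 0.21, edgeR FDR = 6.21e-07). The 8 arterial markers summed to 26.1 to 33.3 in RT controls, 42.4 to 45.3 at 2 days and 30.8 to 37.1 at 5 days, and Fbln5, an elastic fibre protein, was higher from 1 day on, whereas Efnb2 was lower at 6 hours and Gja4 at 5 days. The 6 venous markers summed to 46.7 to 60.8 in RT controls, 40.9 to 54.7 at 6 hours and 28.2 to 38.96 at 5 days, and only 3 of the 6 passed the filter. Nr2f2, the venous identity factor, held most of that difference, at 39.3 ± 2.93 CPM in controls and 18.9 ± 4.32 at 5 days (log2 FC −1.07, SE 0.14, edgeR FDR = 1.48e-05). Ephb4, the ephrin B2 receptor, was called higher at 6 hours and 2 days, and Vcam1, a leukocyte adhesion molecule, after 3 and 4 days. The 7 lymphatic markers, of which Ccl21a had no reads, summed to 7.21 to 9.82 in RT controls, 11.3 to 25.2 at 3 days and 10.9 to 29.4 at 5 days.

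The 10 mural markers summed to 458 to 481 in RT controls, 379.5 to 442 at 6 hours, 343 to 399 at 1 day, 414 to 548 at 2 days, 407 to 514 at 3 days, 379.6 to 451 at 4 days and 298 to 363 at 5 days. Early calls went both ways, with 3 higher and 2 lower of 10 at 6 hours (21.5% and 21.0% of all genes) and 4 higher and 2 lower of 10 at 1 day (18.9% and 17.8%). Acta2, Tagln and Des were higher at 6 hours, Rgs5 and Cspg4 were lower, and the other 5 were not called. At 1 day Abcc9, Kcnj8, Acta2 and Tagln were higher, and Rgs5 and Cspg4 were again lower. At 5 days, 0 were higher and 6 were lower, among them Myh11, smooth muscle myosin (log2 FC −1.03, edgeR FDR = 0.00409), beside 20.2% and 18.6% of all genes. The 6 stromal progenitor markers summed to 360.4 to 505 in RT controls, 286 to 399 at 6 hours, 272 to 336 at 1 day, 234 to 408 at 2 days, 336 to 498 at 3 days, 301 to 474 at 4 days and 257 to 471 at 5 days, with 0 higher and 4 lower of 5 tested at 1 day (18.9% and 17.8% of all genes). Macrophage markers summed to 66.8 to 146 in RT controls, 67.0 to 81.5 at 6 hours, 59.5 to 94.7 at 1 day, 72.8 to 156 at 2 days, 114 to 256 at 3 days, 78.0 to 223 at 4 days and 93.7 to 182 at 5 days. At 3 days, 4 higher and 1 lower of 7 were called (18.3% and 15.5% of all genes), and Cd14, a lipopolysaccharide co-receptor, was lower at all 6 durations.

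The 7 brown adipocyte markers, led by Fabp4 and Ucp1, summed to 12590 to 16150 in RT controls, 14470 to 20260 at 2 days and 15730 to 19720 at 5 days. Ucp1, the uncoupling protein, rose from 1921 ± 614 to 6577 ± 1535 CPM at 2 days and was the only one of the 7 called higher before 5 days, when Plin1 was too. Adipoq and Ppara were lower at all 6 durations, Cidea at 1 day and Fabp4 at 4 days. The 5 proliferation markers summed to 5.67 to 8.37 in RT controls, 2.69 to 5.94 at 6 hours, 15.1 to 63.1 at 4 days and 11.4 to 47.5 at 5 days. Platelet markers summed to 12.6 to 23.4 in RT controls, 20.4 to 37.9 at 3 days and 20.5 to 35.3 at 5 days, most of it Pf4 (13.1 ± 4.05 CPM in controls and 27.2 ± 6.53 at 5 days), which some tissue macrophages also express, and 3 or 4 of the 5 did not pass the filter. Erythroid markers, a sign of blood in the pad, summed to 1826 to 2344 in RT controls, 2500 to 4516 at 1 day and 2701 to 5005 at 5 days. Skeletal muscle markers varied from mouse to mouse, at 62.3 to 784 in RT controls and 126 to 218 at 5 days. The part of these cell types in the results for the 36 genes was not tested.

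**Figure D5:**
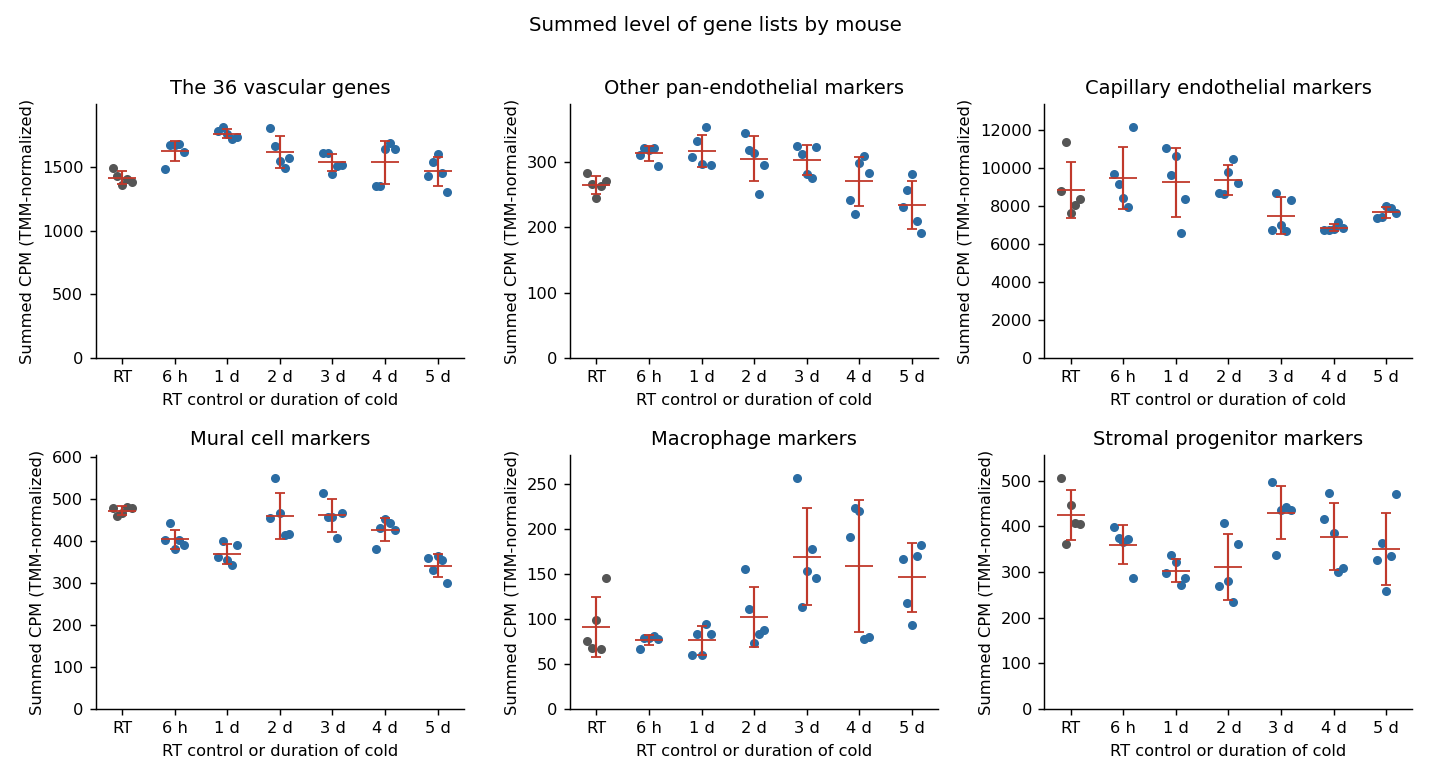
Summed CPM (y axis) of the 36 genes and of markers of other pan-endothelial genes, capillaries, mural cells, macrophages and stromal progenitors by duration of cold (x axis), with a point for each mouse and the mean and SD of 5 mice. The mean sum of the 36 genes is highest at 1 day, that of the mural markers lowest at 5 days, and that of the macrophage markers highest from 3 days on.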

How the data were processed

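RNA from the iBAT of 35 mice was measured with QuantSeq 3′ FWD libraries. Per the labels and methods, the authors sequenced them on an Illumina NovaSeq, aligned reads with STAR 2.6.1d to GRCm38 and deposited raw counts per gene made with HTSeq 0.11.2 on the GRCm38.98 annotation. The HTSeq strand setting is not given in the sources used here. Genes without a symbol (267) held 0.0058% of the reads.

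Counts were used as deposited. Groups came from the sample titles. Each of 7 comparisons (6 cold durations against RT, and cold 5 days against cold 6 hours) was fitted separately with edgeR 4.0.16 (R 4.3.3, filterByExpr, TMM, quasi-likelihood test), adjusting over all genes tested. On simulated counts for cold 6 hours against RT (10677 genes), edgeR recovered 88 of 100 genes changed 2-fold and 100 of 100 changed 4-fold, with 9 false calls. The changed genes were drawn only from those with higher counts and were far fewer than the genes called in the data. These figures therefore do not describe genes with few reads, such as Angpt2 and Aplnr, or the effect of scaling. Alternatives were other normalization factors, other filters, DESeq2 1.42.0, all groups in one fit, a replicate block, an exact permutation test and each mouse left out. No pair of libraries agreed within sampling noise. Members and lists were chosen with earlier results of these data known.

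All 36 members are accounted for. Every member called at least once is given with values, and the 12 called members with the largest absolute log2 fold change against RT, at most 3 per role, are given mouse by mouse. Of each further list, up to 4 genes with the largest absolute log2 fold change among those called are named. Marker genes named beside the counts of their lists were chosen after their values were seen. Positions and overlaps came from GENCODE vM21 and promoters from RefSeq, both on GRCm38. Library totals of 3846016 to 6047247 counts limit the precision of genes below a few CPM.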

Additional observations from a re-analysis of the deposited data

Results flagged for a closer look

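Between 5 days and 6 hours of cold, 14 of the 33 genes tested differed in edgeR's test of that difference (42.4%, beside 35.8% of all genes tested), given as log2 fold changes of 5 days over 6 hours. The differences were −1.46 for Angpt2, −1.15 for Sox18, −0.91 for Pecam1, −0.78 for Esam, −0.75 for Kdr, −0.74 for Sox17 and −0.64 for Flt1. They were smaller for Robo4 (−0.54), Notch1 (−0.47), Egfl7 (−0.45), Eng (−0.43) and Vegfb (−0.30). Angpt1 (0.89) and Epas1 (0.78) were higher at 5 days.

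In 23 of 251 groups of 5 mice, 1 mouse stood apart by Dixon's criterion, which chance meets in about 1 of 20 groups. The high values were 19.5 CPM for Angpt1 and 268 CPM for Kdr at 2 days, 7.75 CPM for Apln, 113 CPM for Flt1, 53.0 CPM for Esam and 22.9 CPM for Mmrn2 in RT controls, and 121 CPM at 3 days and 99.8 CPM at 4 days for Flt1. Others were 10.7 CPM for Tek at 5 days, 4.64 CPM for Dll4 and 7.61 CPM for Notch4 at 3 days and 6.14 CPM for Vwf at 4 days. Low values were 6.94 CPM for Tek, 3.16 CPM for Notch4 and 39.8 CPM for Hif1a at 2 days, 3.89 CPM for Nos3 and 1.60 CPM for Erg at 1 day, and 52.0 CPM for Pecam1 at 3 days. Esm1, with 9 reads in all, stood apart wherever 1 mouse had reads, at 0.263 CPM at 6 hours, 0.186 CPM at 1 day, 0.233 CPM at 2 days, 0.515 CPM at 3 days and 0.173 CPM at 4 days.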

How the results depend on the processing

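No called difference of the 36 genes changed sign in any alternative. Of 83 called differences, 35 of 664 values under other settings and 72 of 829 values without 1 mouse lost the call, and the cause was not tested. Of 60 values named from further lists, 11 lost their call under at least 1 other setting and 13 without at least 1 mouse, and 0 changed sign.

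With scaling by library size only, 8 genes were lower at 1 day (4 with TMM), 5 were higher at 2 days (9), 7 were lower at 3 days (2) and 11 were lower at 5 days (5). DESeq2 called 2 genes lower at 2 days (4 with edgeR). At 5 days against 6 hours, 4 genes were higher (2 in separate fits) with no filter, with all 7 groups in one fit and with the replicate block. The exact permutation test called 0 genes in either direction in all 7 comparisons. Its smallest adjusted p over 21161 genes lay between 0.0501 and 0.068, and 9 to 20 of the 35 genes run had an unadjusted p below 0.05.

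Without 1 mouse, 2 to 4 genes were lower at 2 days, with 2 left without RT replicate 4 or without 2 days replicate 5. At 5 days against 6 hours, 2 to 5 were higher and 7 to 12 lower. The number higher was 4 without 6 hours replicate 3 or 4 and 5 without 5 days replicate 1, and the number lower was 7 without 6 hours replicate 2.

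Signs changed only among uncalled values, in 49 of 1149 values under other settings and 83 of 1435 without 1 mouse, while 30 and 40 of these became called. Library size only gave log2 fold changes of −0.0302 for Dll4, −0.162 for Cdh5 and −0.0835 for Epas1 at 6 hours. At 4 days it gave −0.14 for Vegfa and −0.0647 for Esam, and at 5 days −0.0178 for Vegfa, −0.0716 for Pecam1 and −0.20 for Nos3. Without 1 mouse, Vegfa ranged from −0.093 to 0.0167 at 6 hours and from −0.076 to 0.0916 at 4 days. Dll4 ranged from −0.12 to 0.36 and Cdh5 from −0.0199 to 0.0941 at 6 hours, Tie1 from −0.45 to 0.002 at 2 days, Esam from −0.0123 to 0.19 at 4 days and Nos3 from −0.16 to 0.24 at 5 days.

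The labels give every group replicates 1 to 5, but deviations of same-numbered mice did not move together (r −0.188 to 0.144), so the numbers do not pair the mice. With a replicate block, higher and lower counts were 9 and 5 at 6 hours, 9 and 4 at 1 day, 8 and 3 at 2 days, 7 and 2 at 3 days, 5 and 5 at 4 days, 3 and 6 at 5 days, and 4 and 11 at 5 days against 6 hours. The block left Vegfa at −0.0009 at 4 days and Nos3 at −0.0189 at 5 days. It ended the calls of Tek at 6 hours and 2 days, Notch1 at 6 hours, Cdh5 at 2 days, Kdr at 4 days and Robo4 at 5 days against 6 hours.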
